A study of Mus musculus with 11 samples.

Results

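The 8 genes described here encode proteins of the Ras-ERK cascade and, in Ppp1r10, 1 phosphatase regulator listed with them: Grb2, Sos1, Sos2, Braf, Map2k1, Map2k2, Mapk3 and Ppp1r10. They were taken by name, with no ChIP value in the rule, but they and the wider list were chosen with earlier results of these data known. Shares of all genes given beside them are therefore descriptions. They are 8 of 22342 protein-coding genes on the autosomes and the X chromosome. Each gene was examined over its annotated body with 5 kb on either side. A further 70 genes of the pathway, listed by role, were counted beside them.

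Growth factor receptors pass their signal to Ras through the adaptor Grb2, which carries the exchange factors Sos1 and Sos2 to the membrane. Ras loaded with GTP activates Raf kinases such as Braf, these phosphorylate the MEK kinases Map2k1 and Map2k2, and MEK activates the ERK kinases, of which Mapk3 is ERK1. In erythroid progenitors the cascade is known to act downstream of the receptors for stem cell factor and erythropoietin, and Ppp1r10 (also called PNUTS) is a nuclear protein that binds and targets protein phosphatase 1. PU.1 is an Ets family factor that binds purine-rich DNA with a GGAA core, and it is present in immature red cell precursors as well as in myeloid and B cells.

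The study mapped PU.1 by ChIP-Seq in murine erythroleukemia (MEL) cells and in erythroid progenitors derived from mouse embryonic stem cells (ES-EP), to ask where the factor sits in leukemic and in normal erythroid cells. The MEL cells were 1 clone (labelled clone 4) that stably carries a fusion of GATA-1 with ER and was kept in puromycin, whereas the ES-EP carry no stated transgene and were grown with Epogen, IGF-1, dexamethasone and SCF. Each cell type has 2 chromatin preparations immunoprecipitated with anti-PU.1 (T-21), with 1 input library for MEL cells and 2 for ES-EP. The letters A and B in the labels were read here as these preparations, and the numbers 1 and 2 as 2 libraries of each. Clone, medium and cell type cannot be told apart in this design, and no sample without PU.1 or with a control antibody was analysed here.

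The 11 libraries held 2049321 to 5043246 reads on the autosomes and X. Summed over the libraries of a preparation, MEL cells had 5685468 (A) and 6972811 (B), ES-EP had 6275205 (A) and 7084483 (B), and the inputs had 4270630 (MEL) and 7476546 (ES-EP). Levels below are CPM, the read count in 500 bp scaled to a common depth by these totals, and a ratio is ChIP CPM over the CPM of the input of the same cell type in the same window, with an exact 95% interval that covers counting error only. Over all 8944 sites called in the genome, the 500 bp at the summits took 3.83 to 5.62% of reads in MEL ChIP libraries and 3.54 to 8.49% in those of ES-EP. The same windows took 0.727% of the MEL input and 2.45 and 3.35% of the ES-EP inputs.

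The sequences below come from the 2 genes with the highest promoter levels. They show where the word GAGGAA, the PU box, lies in the site of Ppp1r10 and in 2 Grb2 sites that were called in both cell types and hold a match close to the summit. They were read from NCBIM37 (mm9) on the strand of the gene, and capitals mark GAGGAA or its reverse complement TTCCTC. The first, chr17:36053544-36053743 on the plus strand, lies between the start of Mrps18b and the transcription start site (TSS) of Ppp1r10 used here. It runs from -312 to -113 bp relative to that TSS, downstream of a second annotated start of Ppp1r10. The second lies just upstream of an alternative start of Grb2, chr11:115560849-115561048 on the minus strand. The third lies in an intron of Grb2, chr11:115554231-115554430 on the minus strand. None of the 3 overlaps an exon of a protein-coding transcript.
Ppp1r10 promoter: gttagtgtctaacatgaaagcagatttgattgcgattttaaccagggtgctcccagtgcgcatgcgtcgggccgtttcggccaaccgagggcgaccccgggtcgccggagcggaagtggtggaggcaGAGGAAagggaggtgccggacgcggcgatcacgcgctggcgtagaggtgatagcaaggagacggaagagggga
Grb2 alternative start: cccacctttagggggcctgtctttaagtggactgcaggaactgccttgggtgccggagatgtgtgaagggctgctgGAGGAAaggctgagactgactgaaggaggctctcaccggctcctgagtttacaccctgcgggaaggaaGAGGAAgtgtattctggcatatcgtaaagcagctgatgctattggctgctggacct
Grb2 intron: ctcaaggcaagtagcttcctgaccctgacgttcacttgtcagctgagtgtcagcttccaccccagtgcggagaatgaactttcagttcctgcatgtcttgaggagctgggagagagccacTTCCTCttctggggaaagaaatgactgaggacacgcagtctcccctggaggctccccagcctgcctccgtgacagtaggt

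Upstream of Grb2, 3 further matches lay within 250 bp of the summit, and 2 of them continued into GT. These are shown with 12 bases on either side, on the plus strand of the genome, since they belong to the site with the most reads outside a promoter. The first is chr11:115573807-115573836 and the second is chr11:115574076-115574105.
Grb2 upstream, first match: gggaagtggcggGAGGAAgtgagggtgtgc
Grb2 upstream, second match: tggttagcccaaGAGGAAgtgaggggtcta

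Promoter occupancy was read in a fixed window of 500 bp centred on the TSS, so that no ChIP read chose the window. A window was called when its ChIP reads exceeded the depth-scaled local input in both preparations (one-sided exact Poisson test, Benjamini-Hochberg adjusted p below 0.05 over all genes). Grb2 and Ppp1r10 were called in MEL cells, 2 of the 8 genes, against 13.1% of all genes. In ES-EP only Ppp1r10 was called, 1 of 8, against 7.42% of all genes. With a window of 1000 bp the calls were 5 of 8 in MEL cells (Grb2, Ppp1r10, Map2k1, Sos1 and Sos2), against 16.8% of all genes, and 2 of 8 in ES-EP (Grb2 and Ppp1r10), against 9.09%. By the exact binomial test against the input of the same window alone, Grb2 lost its call in MEL cells and Ppp1r10 kept it, with 722 of all 22342 genes called. Braf, Map2k2 and Mapk3 were called at neither width in either cell type. The counts at 500 bp rest on the weaker preparation: with MEL B alone 5 of the 8 were called, as were 8425 of all 22342 genes, and with ES-EP A alone 5 of the 8, as were 4721 of all genes.

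**Figure D1:**
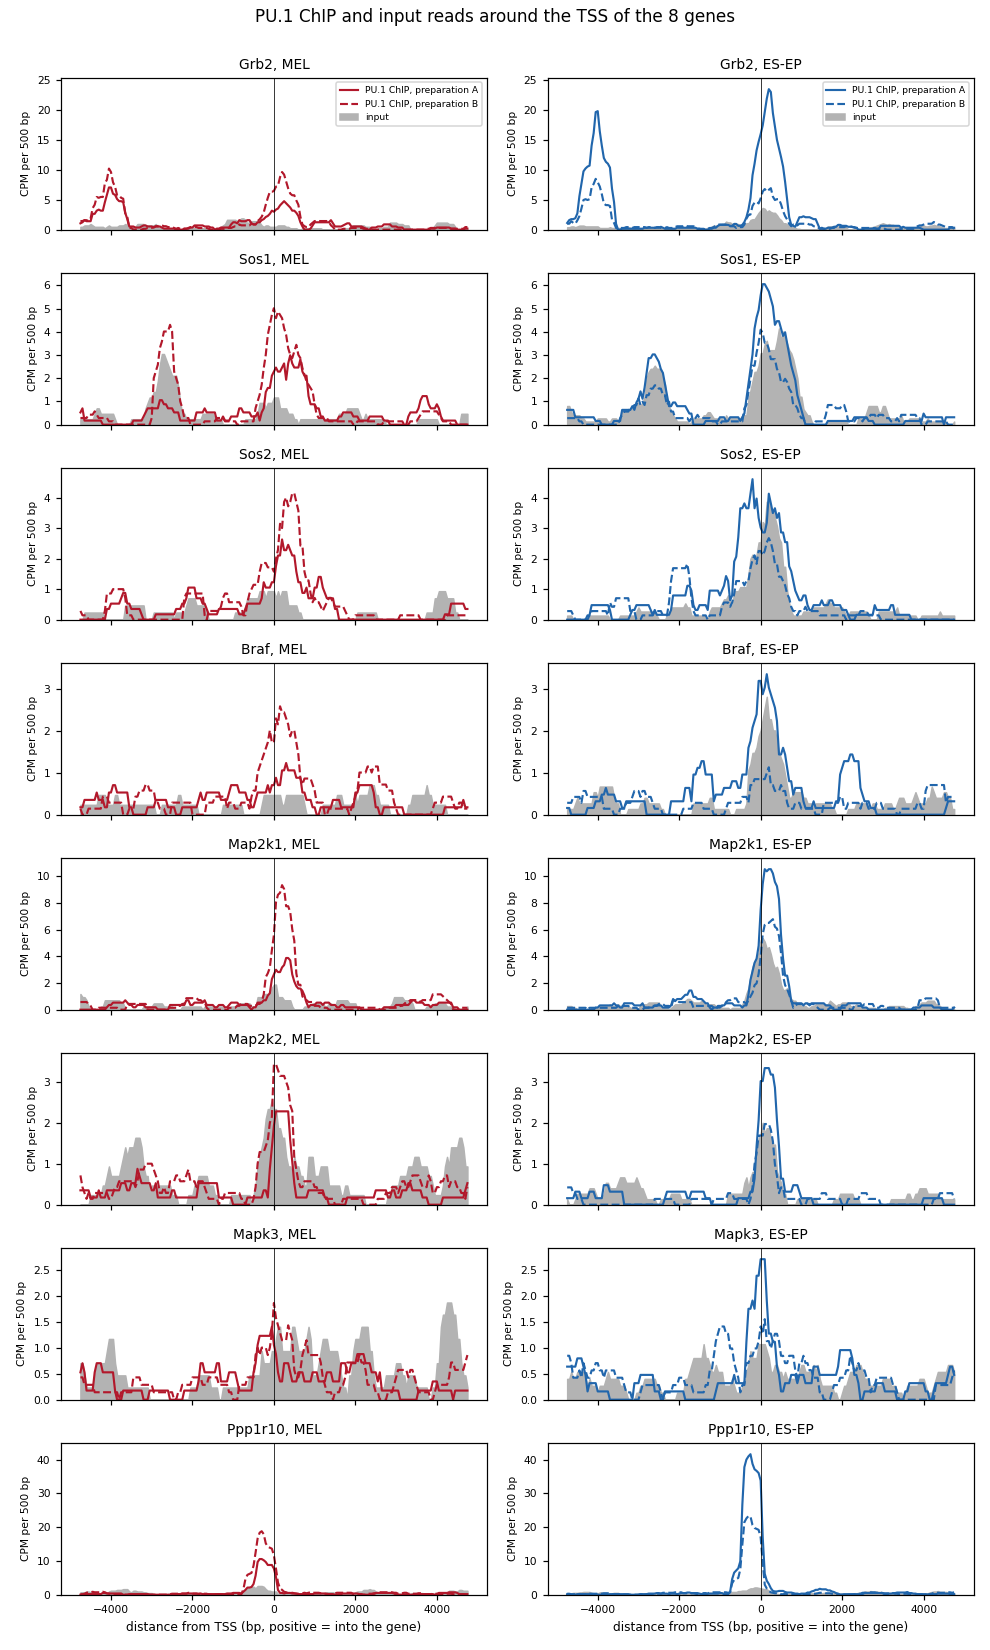
Reads per 500 bp (CPM) at positions within 4750 bp of the TSS of each gene, MEL cells at left and ES-EP at right, with solid and dashed lines for ChIP preparations A and B and grey for input. The 2 panels of a gene share 1 scale. The grey input rises at the TSS of Grb2, Sos1, Sos2, Braf and Map2k1 in ES-EP and stays lower there in MEL cells.

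Sites were called with the same test in 500 bp windows moved by 250 bp over the whole genome, and overlapping windows were joined. In the 8 gene regions 19 of 2229 windows were called in MEL cells (0.852%), against 0.113% of windows in the genome, and 14 (0.628%) in ES-EP, against 0.0805%. Each of these regions holds a promoter by construction, which most windows of the genome do not, so shares of genes are also given. In MEL cells 5 of the 8 genes had a site within 2 kb of a TSS, against 13.5% of all genes, and the same 5 were those with a site anywhere in the body or flanks, against 22.2%. In ES-EP 2 of 8 genes had a promoter site, against 8.82%, and 3 had a site anywhere in the region, against 16.4%. Joined over both cell types there were 10 sites, 6 at promoters, 1 inside a gene and 3 in flanks, and 5 of them lay in or beside Grb2. These sites were found with the ChIP reads, so their ratios to input are given as a description.

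Ppp1r10 (ENSMUSG00000039220.9, chr17:36053379-36069226, plus strand) had the highest promoter level of the 8 genes in both cell types. Its TSS window held 44 reads in MEL A, 81 in MEL B, 212 in ES-EP A and 120 in ES-EP B, with 4 reads in the MEL input and 14 in that of ES-EP. As levels these were 7.74 and 11.6 CPM in MEL cells and 33.8 and 16.9 CPM in ES-EP, against 0.937 and 1.87 CPM in the inputs. Both ES-EP preparations lay above both MEL preparations, and the ranges of the cell types did not overlap. The ratio to input was 8.26 (interval 3.01 to 31.7) in MEL A and 12.4 (4.66 to 46.6) in MEL B, and 18.04 (10.5 to 33.6) in ES-EP A and 9.05 (5.19 to 17.0) in ES-EP B.

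The Ppp1r10 site, called in both cell types, spanned chr17:36053001-36054000 with its summit at -265 bp from the TSS used here and 80 bp inside a second annotated start of the gene. The start of Mrps18b, which encodes a mitochondrial ribosomal protein and is transcribed the other way, lay 257 bp from the summit. The read data do not assign the site to 1 of the 2 genes. At the summit the levels were 10.4 and 18.8 CPM in MEL cells and 41.8 and 23.4 CPM in ES-EP, against inputs of 2.34 and 1.87 CPM. These are the highest levels at any of the 10 sites in all 4 preparations. The word GAGGAA stood 83 bp downstream of the summit.

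Grb2 (ENSMUSG00000059923.6, chr11:115505359-115569911, minus strand) was second in promoter level in both cell types and was the gene with PU.1 reads at several separate places. Its TSS window held 17 and 45 reads in MEL A and B with 2 in the input, and 100 and 37 reads in ES-EP A and B with 24 in the input. As levels these were 2.99 and 6.45 CPM against 0.468 CPM in MEL cells, and 15.9 and 5.22 CPM against 3.21 CPM in ES-EP. The ES-EP preparations differed from each other by more than those of MEL cells, and ES-EP B lay inside the MEL range. The ratio to input was 6.39 (1.52 to 57.0) and 13.8 (3.60 to 117) in MEL cells, where the input interval is wide because it held 2 reads, and 4.96 (3.15 to 8.11) and 1.63 (0.948 to 2.84) in ES-EP. In ES-EP the window passed the test in A and not in B (adjusted p = 0.0753, exact Poisson test), against the ES-EP input of 24 reads. It was called in both ES-EP preparations with a 1000 bp window, with all reads, and against the MEL input.

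The site at the main start of Grb2 (chr11:115569251-115570250) had its summit 230 bp downstream of the TSS, in an intron, and was called in both cell types, in ES-EP not at adjusted p below 0.01. It held 4.75 and 9.18 CPM in MEL cells against 0.703 CPM in the input, and 23.1 and 7.06 CPM in ES-EP against 2.94 CPM. The site at the alternative start (chr11:115560501-115561250) lay 9020 bp into the gene and 43 bp upstream of the nearest alternative start. Its levels were 3.52 and 4.45 CPM in MEL cells and 6.22 and 4.66 CPM in ES-EP. The MEL input held 3 reads there and the ES-EP input none of 7476546. With 3 reads put in as a floor for the ES-EP input, the ratios to input were 15.5 (A) and 11.6 (B). From the input as counted, with no read, the exact 95% lower limits of the ratios were 12.01 (A) and 8.92 (B).

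The internal site of Grb2 (chr11:115554001-115554750) lay in an intron 15580 bp from the TSS, and was the only internal site in the 8 genes in these calls. The Grb2 intron site was called in both cell types, with 3.69 and 4.59 CPM in MEL cells and 4.62 and 3.53 CPM in ES-EP. The 4 preparations overlapped, and the fitted difference was near 0 (log2 fold change 0.01, SE 0.63). Its inputs were low in both cell types, with 1 read for MEL cells and 4 for ES-EP. The ratio to input was 15.8 (2.54 to 652) and 19.6 (3.27 to 798) in MEL cells, and 8.64 (3.03 to 33.8) and 6.60 (2.28 to 26.1) in ES-EP. Under other settings the internal sites of the 8 genes numbered 1 to 3 in MEL cells and 1 to 7 in ES-EP, most with preparations summed, and those added lay in Grb2, Sos2, Ppp1r10 and, in MEL cells without A, Map2k2.

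The upstream site of Grb2 (chr11:115573501-115574500) lay at -4040 bp from the TSS, and the nearest start of another gene was that of the pseudogene Gm11703 at 12197 bp. It was called in both cell types and held more reads than the site at the main start in both MEL preparations, with 7.04 and 10.2 CPM against 0.468 CPM of input. In ES-EP, where only preparation B had more reads here than at the main start, it held 19.9 and 8.33 CPM against 0.535 CPM of input. The 2 libraries of MEL A differed here, with 4 reads (1.95 CPM) in the first and 36 reads (9.90 CPM) in the second, while the other 2 MEL libraries held 9.53 and 10.6 CPM. Ratios to input were 15.02 (3.90 to 128) and 21.7 (5.80 to 183) in MEL cells and 37.2 (14.2 to 139) and 15.6 (5.77 to 59.0) in ES-EP. The last Grb2 site, 2608 bp past the 3′ end of the gene (chr11:115502501-115503000), was called in ES-EP alone, with 3.83 and 3.39 CPM against 1.20 CPM of input. MEL cells held 1.41 and 2.01 CPM there, below both ES-EP preparations. The call was lost with 200 bp windows and at a stricter threshold (adjusted p below 0.01).

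**Figure D2:**
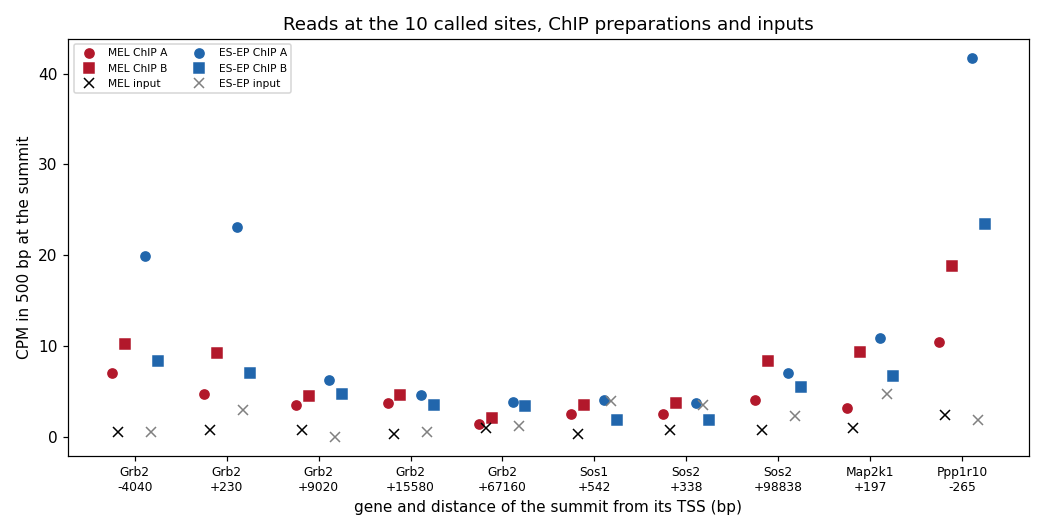
CPM in 500 bp at the summit of each of the 10 sites, with circles and squares for ChIP preparations A and B (MEL in red, ES-EP in blue) and crosses for inputs (MEL black, ES-EP grey). The inputs are close to 0 at the Grb2 upstream, alternative-start and intron sites in both cell types, while at Sos1 and Sos2 (+338) the ES-EP input lies among the ES-EP ChIP values.

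Sos1 (ENSMUSG00000024241.6, chr17:80793092-80879793, minus strand), an exchange factor for Ras, was called at a site in MEL cells and at none in ES-EP, where a promoter site was called with preparations summed and without B. The site (chr17:80878751-80879500) had its summit 542 bp into the gene, in coding sequence. It held 2.46 and 3.44 CPM in MEL cells and 3.98 and 1.84 CPM in ES-EP. The ChIP levels of the cell types overlapped, whereas the inputs did not: 1 read of 4270630 (0.234 CPM) in MEL cells against 29 of 7476546 (3.88 CPM) in ES-EP. The ratio to input was therefore 10.5 (1.60 to 445) and 14.7 (2.40 to 605) in MEL cells, and 1.03 (0.577 to 1.82) and 0.473 (0.226 to 0.939) in ES-EP. At the TSS window Sos1 held 2.29 and 5.02 CPM in MEL cells against an input of 1.17 CPM, and 5.58 and 4.09 CPM in ES-EP against 3.08 CPM.

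Sos2 (ENSMUSG00000034801.6, chr12:70684748-70782839, minus strand), the second exchange factor, showed the same arrangement at its promoter. Its site in an intron, 338 bp into the gene (chr12:70782251-70782750), was called in MEL cells alone, with 2.46 and 3.73 CPM in MEL cells and 3.67 and 1.84 CPM in ES-EP. The call was lost with 200 bp windows and at adjusted p below 0.01. The inputs there were 0.703 CPM in MEL cells and 3.48 CPM in ES-EP, so that ES-EP ChIP stood at 1.05 times its input in A (0.575 to 1.92) and 0.528 times in B (0.249 to 1.07). A second site in the Sos2 region (chr12:70683751-70684500) was called in both cell types and lay 747 bp past the 3′ end of Sos2. Its summit was 14 bp from the start of Mettl21d, a neighbouring gene, inside that gene, so by position this site belongs to its promoter. It held 4.05 and 8.32 CPM in MEL cells and 7.01 and 5.51 CPM in ES-EP.

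Braf (ENSMUSG00000002413.8, chr6:39553236-39675462, minus strand), the Raf kinase of the list, had no site in the main calls. It had a promoter site in MEL cells when preparations were summed or A was left out. Its TSS window held 4 and 12 reads in MEL cells with 2 in the input, and 20 and 6 in ES-EP with 15 in the input. These were the lowest mean promoter levels of the 8 genes in both cell types, 1.21 ± 0.719 CPM in MEL cells and 2.02 ± 1.66 CPM in ES-EP (SD, n = 2). The window passed the test in MEL B and in no other preparation (adjusted p = 0.000418, exact Poisson test). In ES-EP the ratio to input was 1.59 (0.773 to 3.34) and 0.422 (0.134 to 1.15).

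Map2k1 (ENSMUSG00000004936.8, chr9:64033577-64101438, minus strand), which encodes MEK1, had a site at chr9:64100751-64101500, called in MEL cells alone. It was lost in MEL cells with 200 bp windows, and a site there was called in ES-EP with preparations summed and without B. Its summit lay 197 bp into the gene, in the 5′ untranslated region, and held 3.17 and 9.32 CPM in MEL cells against 0.937 CPM of input. ES-EP held 10.8 and 6.63 CPM, a range that overlaps that of MEL cells, over an input of 4.68 CPM. The ratios were 3.38 (1.11 to 13.7) and 9.95 (3.71 to 37.6) in MEL cells and 2.32 (1.52 to 3.59) and 1.42 (0.896 to 2.26) in ES-EP. Chromosome 9 as a whole had 0.874 times the share of input reads in MEL cells that it had in ES-EP, and with that ratio divided out the fitted difference of the site went from -0.68 to -0.48 on the log2 scale.

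Map2k2 (ENSMUSG00000035027.10, chr10:80568660-80587442, plus strand), which encodes MEK2, had no site and was the 1 gene of the 8 whose fitted promoter level was higher in MEL cells, a direction that turned without MEL B (-0.23) and without ES-EP B (-0.22). Its TSS window held 1.94 and 3.44 CPM in MEL cells against 2.34 CPM of input, and 3.03 and 1.69 CPM in ES-EP against 1.74 CPM. The ChIP preparations lay on both sides of the input in each cell type. Mapk3 (ENSMUSG00000063065.7, chr7:133903115-133909333, plus strand), which encodes ERK1, had no site either. It held 1.06 and 1.86 CPM in MEL cells against 0.937 CPM of input, and 2.71 and 1.41 CPM in ES-EP against 1.07 CPM. Of these 2 genes no window passed the test in any MEL preparation, and both passed it in ES-EP A alone (adjusted p = 0.0314 for Map2k2 and 0.0178 for Mapk3, exact Poisson test).

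**Figure D3:**
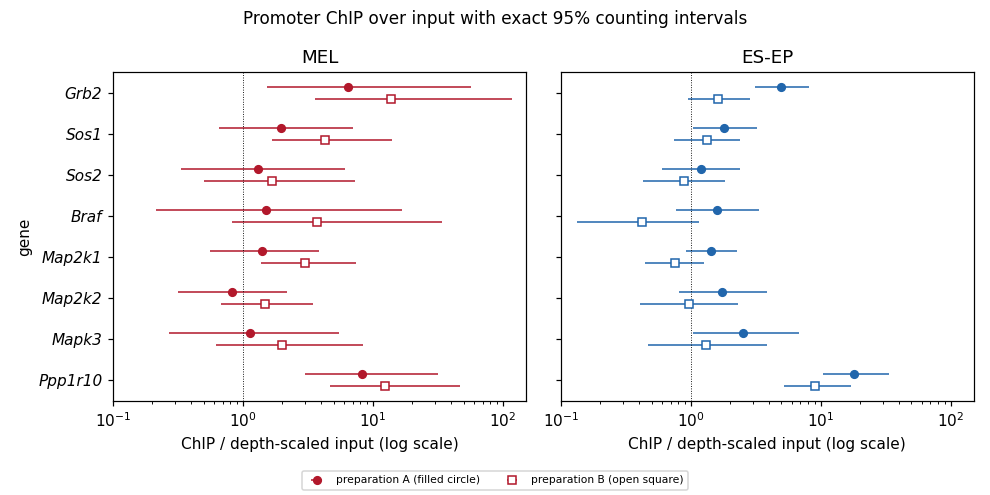
Ratio of ChIP to depth-scaled input in the 500 bp TSS window of each gene on a log scale, MEL cells at left and ES-EP at right, with filled circles for preparation A, open squares for preparation B and exact 95% counting intervals. Both preparations lie above 1 with their intervals for Ppp1r10 in both cell types and for Grb2 in MEL cells.

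In order of mean promoter level, MEL cells ran Ppp1r10 (9.68 ± 2.74 CPM), Grb2 (4.72 ± 2.45), Map2k1 (4.12 ± 2.09), Sos1 (3.65 ± 1.93), Map2k2 (2.69 ± 1.07), Mapk3 (1.46 ± 0.572), Sos2 (1.404 ± 0.245) and Braf (SD, n = 2 for each). Neighbours in this order had overlapping preparations except Ppp1r10 against Grb2 and Map2k2 against Mapk3. ES-EP ran Ppp1r10 (25.4 ± 11.9 CPM), Grb2 (10.6 ± 7.58), Map2k1 (5.72 ± 2.50), Sos1 (4.84 ± 1.05), Sos2 (2.64 ± 0.544), Map2k2 (2.36 ± 0.943), Mapk3 (2.06 ± 0.918) and Braf. There the neighbours apart from each other were Ppp1r10 and Grb2, and Sos1 and Sos2. The first 4 genes came in the same order in both cell types.

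**Figure D4:**
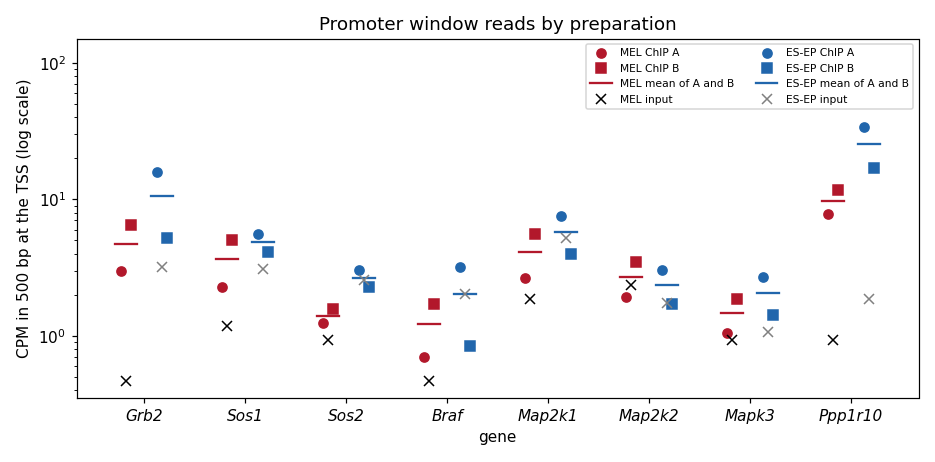
CPM in the 500 bp TSS window of the 8 genes on a log scale, with circles and squares for ChIP preparations A and B, bars for their mean and crosses for input. Preparation B is the higher one in MEL cells and preparation A in ES-EP for every gene shown.

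The 2 preparations of a cell type differed in the same direction at all 8 promoters, with MEL B above MEL A and ES-EP A above ES-EP B. Against the spread between preparations, pooled in part over all promoters, no promoter of the 8 differed between the cell types (limma voom, two-sided, Benjamini-Hochberg over 14051 promoters). That was 0 of 8, against 0.0142% of all promoters tested. At unadjusted p below 0.05 the count was also 0 of 8, beside 843 of 14051. The largest fitted difference was that of Ppp1r10 (log2 fold change MEL minus ES-EP -1.34, SE 0.86, limma adjusted p = 0.775), with both ES-EP preparations above both MEL preparations. Without 1 preparation it ran from -1.83 to -0.84, and that of Grb2 from -1.85 to -0.25, so that without ES-EP B Grb2 had the larger one. With every preparation Grb2 followed (-1.07, SE 0.78, adjusted p = 0.775), with MEL above ES-EP in 1 of the 4 pairs of preparations.

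Both ES-EP preparations also lay above both MEL preparations at Sos2. The remaining promoters had fitted log2 fold changes of -0.87 (Sos2), -0.52 (Braf), -0.52 (Map2k1), -0.50 (Sos1), -0.45 (Mapk3) and 0.17 (Map2k2). The median of the 8 was -0.52, beside -0.39 over all promoters tested, and 7 of the 8 were below 0, beside 9619 of 14051. Without MEL A the median of the 8 was -0.03, beside 0.02 over all promoters, and Braf, Map2k1 and Sos1 also lay above 0. When preparations were scaled by the median ratio over promoters in place of total reads, the median over all promoters moved from -0.39 to 0.03, and that of the 8 genes to -0.09. The distance of the 8 genes from the median of all promoters was -0.13 with every preparation and ran from -0.37 (without ES-EP B) to 0.03 (without ES-EP A) when 1 preparation was left out, with 4 to 7 of the 8 below that median. By a 5-fold rule on summed, depth-scaled reads, with no test, 0 of the 8 promoters differed, against 1.74% of those tested.

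None of the 10 sites differed between the cell types either (limma voom over 8944 sites, 0 of 10 at adjusted p below 0.05, against 16.0% of all sites, and 0 of 10 at unadjusted p below 0.05, against 2493 of 8944). The sites entered this comparison through calls in either cell type, made with the same ChIP reads, so the differences and shares are descriptions. The smallest limma adjusted p was 0.223, at the Grb2 site past the 3′ end (log2 fold change -1.06, SE 0.58). That site entered through its ES-EP call alone, and both ES-EP preparations were above both MEL preparations there. The Ppp1r10 site had -1.17 (SE 0.81, adjusted p = 0.354), and the Grb2 site at the main start had -0.98 (SE 0.75, adjusted p = 0.407). Without 1 preparation the latter ran from -1.83 (without ES-EP B) to -0.13 (without ES-EP A), and that of the Ppp1r10 site from -1.60 (without ES-EP B) to -0.74 (without MEL A). Under median-ratio scaling the Ppp1r10 site passed the threshold (-1.01, limma adjusted p = 0.0418), as did 3014 of 8944 sites. The 3 promoter sites called in MEL cells alone had fitted differences of 0.08 (Sos1, SE 0.58), 0.20 (Sos2, SE 0.58) and -0.68 (Map2k1, SE 0.72). With 2 preparations a side, an exact permutation test of a single window cannot fall below 0.33.

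At the 3 promoter sites called in MEL cells alone the input of ES-EP was higher than that of MEL cells. It was also higher at sites called in both cell types, at the Grb2 main start (2.94 against 0.703 CPM) and at Mettl21d (2.27 against 0.703 CPM). At the Ppp1r10 site (1.87 against 2.34 CPM) and the Grb2 alternative start it was lower. In the TSS windows of the 8 genes the MEL input ran from 2.47 to 12.4 times its genome mean (median 4.94) and the ES-EP input from 5.65 to 27.5 times (median 12), where the medians over all genes were 2.47 and 2.82. After these values were seen, each cell type was also tested against the input of the other, which shows how far the calls depend on the input used. MEL cells then had 1 of 8 promoter windows called (Ppp1r10), against 3.02% of all genes, and ES-EP had 5 of 8 (Grb2, Map2k1, Ppp1r10, Sos1 and Sos2), against 27.3%. Of windows in the genome 0.110% were called in MEL cells and 0.199% in ES-EP under this exchange. The Sos1, Sos2 and Map2k1 promoter sites of MEL cells were lost, together with the Grb2 site at the main start and the site at Mettl21d, and in ES-EP the Grb2 site past the 3′ end was lost while promoter sites of Sos1 and Map2k1 and an internal site of Sos2 appeared. The Ppp1r10 site and the upstream, alternative-start and intron sites of Grb2 were called in both cell types with either input.

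Away from the 10 sites, ChIP reads over the 8 gene regions stayed near the input. The ratio of ChIP to input outside sites ran from 0.659 (Map2k2, MEL A) to 1.37 (Ppp1r10, ES-EP A) over the 32 values of 8 genes and 4 preparations. Within 2 kb of a TSS, sites included, Ppp1r10 had ratios of 2.78 and 4.81 for MEL cells and 9.66 and 5.42 for ES-EP. Sos1 had 2.49 and 3.16 for MEL cells and 1.30 and 0.864 for ES-EP over the same kind of stretch. In gene bodies beyond 2 kb, Grb2 had ratios of 0.941 and 0.905 for MEL cells and 1.13 and 1.15 for ES-EP, so that its single site of the internal class stood in a body near input level.

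The PU box word GAGGAA occurred on either strand in 5 of the 8 TSS windows, beside 41.2% of all promoter windows, and in 7 of the 10 site windows, beside 66.2% of all sites. It was found in all 5 windows of the Grb2 sites, in that of Map2k1 and in that of Ppp1r10, and not in those of Sos1 and Sos2. The nearest matches to a summit were at Grb2, 1 bp away at the site past the 3′ end, 11 bp upstream at the alternative start and 23 bp downstream in the intron. The ETS word CCGGAAGT occurred in 0 of 8 TSS windows and 0 of 10 sites, beside 5.77% of promoter windows and 4.37% of sites. The GATA word GATAAG was also found in none, beside 9.90% and 17.4%. These matches are letters in a window of 500 bp and were not tested as binding sites.

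Base composition divided the 10 sites into a pair of groups. The upstream, alternative-start, intron and 3′ sites of Grb2 had 50.4 to 58.4% GC and observed over expected CpG of 0.189 to 0.308, near the medians of all sites (50.2% and 0.300). The 6 other sites had 61.4 to 77.4% GC and CpG ratios of 0.880 to 1.07, and all of them lay at most 542 bp from an annotated start. So did the alternative-start site of Grb2 in the first group, at 43 bp. In the TSS windows of the 8 genes GC ran from 64.0% (Ppp1r10) to 84.2% (Sos2), beside a median of 57.8% over all promoter windows.

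Of the 70 other genes of the pathway, 16 had a called TSS window in MEL cells, beside 13.1% of all genes, and 5 in ES-EP, beside 7.42%. With 1 preparation left out these counts reached 52 in MEL cells (without A), beside 8425 of all 22342 genes, and 32 in ES-EP (without B), beside 4721. By the exact binomial test they were 3 and 4, beside 722 and 860 of all genes. By role the 16 called in MEL cells were 4 of 10 nuclear targets, 3 of 13 feedback inhibitors, 2 of 6 Ras exchange factors and 2 of 5 Ras GTPase-activating proteins. The rest were 2 of 7 kinases downstream of ERK, and 1 each of the Ras proteins, the Raf kinases and scaffolds, and the PP1 and PP2A subunits. None of the 7 other adaptors was called in both preparations of either cell type, although Gab1, Gab2, Ptpn11 and Crk passed the test in MEL B and Shc1, Ptpn11 and Crkl in ES-EP A (named after their values were seen). The 3 of the 70 genes with the highest promoter level were the same in both cell types. Dusp5, a phosphatase that inactivates ERK, held 39.8 and 114 CPM in MEL cells and 49.6 and 30.1 CPM in ES-EP, with a mean above that of every one of the 8 genes in both cell types. Rps6ka3, the ERK-activated kinase RSK2, held 6.16 and 14.8 CPM in MEL cells and 20.6 and 6.21 CPM in ES-EP. Ppp2ca, the catalytic subunit of PP2A, held 4.05 and 11.3 CPM in MEL cells and 24.2 and 11.01 CPM in ES-EP.

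**Figure D5:**
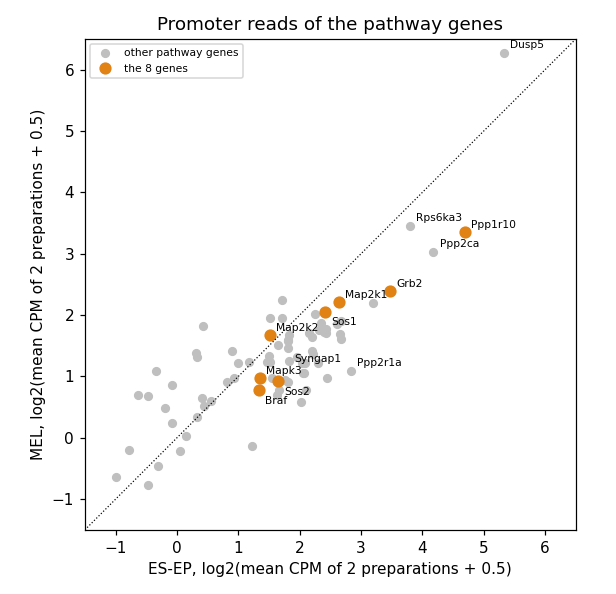
Mean promoter level of the 2 preparations, as log2(CPM + 0.5), in ES-EP (x axis) and MEL cells (y axis), with the 8 genes in orange, the 70 other pathway genes in grey and a dotted line at equality. Dusp5 lies highest on both axes, and 7 of the 8 genes lie below the line.

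Ppp2ca and Rps6ka3 were also the pathway genes whose promoter levels over the 4 preparations were most like those of Ppp1r10, the gene of the 8 with the highest level and the largest fitted difference (Euclidean distances of 1.15 and 1.61 on log2(CPM + 0.5), 4 preparations). Of the 66 other pathway genes with enough reads to be tested, 0 differed between MEL cells and ES-EP at an adjusted p below 0.05 (limma) and 9 did at an unadjusted p below 0.05, beside 843 of 14051 promoters. Under median-ratio scaling 3 of the 66 differed (Mras, Ppp2r1a and Rasgrp4), as did 314 of all promoters. The median log2 fold change of the 66 was -0.55. Sites within 2 kb of a TSS were found at 18 of the 70 in MEL cells, beside 13.5% of all genes, and at 10 in ES-EP, beside 8.82%.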

How the data were processed

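PU.1 ChIP and input DNA of MEL cells and ES-EP were sequenced by the authors on an Illumina GAII and aligned with ELAND (version not given in the sources used here) to mm9, keeping unique alignments with up to 2 mismatches. The deposited files list aligned reads without a measured value, so every count was made here. Reads were moved by 70 bp (MEL) or 65 bp (ES-EP) toward the fragment centre. Library letters were read as preparations and libraries of a preparation summed (n = 2 per cell type). The limma p-values rest on the spread between preparations, pooled in part over all windows, and not on that of 1 window alone. Poisson p-values measure the counting error within 1 preparation. Genes came from GENCODE on NCBIM37. The TSS was the start shared by the largest number of protein-coding transcripts, with nearby starts joined. Ties, as for Braf and Ppp1r10, went to the start of the longest transcript. Calls used 1 read per position and strand against an input level scaled to depth, the highest of those in the window, around it (1, 5 or 10 kb) and over the genome (adjusted p below 0.05 in both preparations); levels used all reads. Cell types were compared with limma 3.58.1 (voom, total-read scaling, at least 10 reads per promoter) in R 4.3.3; scripts ran in Python 3.11.15 and were tested on simulated data. PCR copies are not independent molecules, so intervals cover counting error only. Named were the 8 genes with their sites, the 3 called pathway genes with the highest promoter CPM per cell type, and the 2 nearest in pattern to Ppp1r10. The members and lists were chosen with earlier results of these data known. Protein sequences were not used here.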

Additional observations from a re-analysis of the deposited data

Results flagged for a closer look

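Over the 4 ChIP libraries of each cell type, 36 groups of values were examined (8 promoter windows and 10 sites in 2 cell types), and 1 library stood apart from the other 3 of its group by Dixon's gap-to-range test, where chance alone gives about 1 in 20. This was the first library of MEL preparation A at the Grb2 site at -4040 bp from the TSS, with 1.95 CPM (4 reads) against 9.53, 9.90 and 10.6 CPM in the others. The second library of the same preparation was among those 3.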

How the results depend on the processing

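Counts of called promoters among the 8 genes moved from 2 in MEL cells to 1 (exact binomial test, or the ES-EP input, chosen after seeing the data) and to 5 (1000 bp windows, or preparations summed), and from 1 in ES-EP to 2 (1000 bp windows, or all reads), 4 (summed) and 5 (the MEL input). With preparations summed, 8096 of all 22342 genes were called in MEL cells and 4430 in ES-EP, beside 2928 and 1658. Without 1 preparation the counts among the 8 ran from 2 to 5 in MEL cells (5 without A) and from 1 to 5 in ES-EP (5 without B). Sites in the 8 regions numbered 9 in MEL cells and 4 with the ES-EP input, and 7 in ES-EP and 15 with preparations summed. Without 1 preparation they ran from 9 to 11 and from 8 to 13 (13 without B). Genes of the 8 with a site went from 5 in MEL cells to 6 summed, 7 without A and 2 with the ES-EP input. In ES-EP they went from 3 to 5 summed, without B, or with the MEL input. With the main settings 22.2% of all genes had such a site in MEL cells and 16.4% in ES-EP. That share was not counted under the other settings. Over the genome, ES-EP sites went from 4810 to 17869 with preparations summed and to 15226 without B, and MEL sites from 6897 to 25082 summed, 19049 without A and 6539 with the ES-EP input.

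Over all promoters, 2 differed between the cell types (1 each way) and 13 did on log2 CPM plus 0.5, 1 on log2 CPM plus 2, 314 under median-ratio scaling (203 higher in MEL cells), 0 without a filter, 5 with 1 read per position, 23 with libraries as samples, 11 with 1000 bp windows, 7 at the 5-prime-most TSS and 244 by the 5-fold rule, and 0 without any 1 preparation (144 to 2054 at unadjusted p below 0.05, limma; 1281 without a filter). Over 8944 sites, 1427 differed (956 higher in MEL cells), and 3014 did under median-ratio scaling, 868 with libraries as samples, and 0 to 974 without 1 preparation (0 without ES-EP B, with 2423 unadjusted, 19 without MEL B and 63 without MEL A). The 8944 sites had been called in either cell type with the same ChIP reads, so their counts are descriptions. The letters were not stated to pair the preparations, and the A preparations of both cell types deviated with r = -0.145 over promoters and -0.058 over sites. With the letter as a replicate block 0 promoters (529 unadjusted) and 1201 sites were called. With the crossed pairing (MEL A with ES-EP B, added after seeing the data) as a replicate block, 1657 promoters, 2 of the 8 among them, and 2286 sites, 2 of the 10 among them, were called, with 12 of the 66 other pathway promoters.

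None of the 8 promoters or 10 sites passed the threshold under the alternatives other than the crossed pairing, except the Ppp1r10 site under median-ratio scaling (limma adjusted p = 0.0418). Directions turned at the Sos2 site at Mettl21d under median-ratio scaling (0.0492) and at the Grb2 intron site with 1 read per position (-0.0940) and with libraries as samples (-0.0046). Without 1 preparation, directions also turned, and the log2 fold change at promoters ran from -1.45 to 0.39 (Braf), -1.03 to 0.0177 (Map2k1), -1.04 to 0.0580 (Sos1), -0.23 to 0.59 (Map2k2) and -0.91 to 0.0090 (Mapk3), and at sites from -1.40 to 0.13 (Map2k1), -0.18 to 0.20 (Grb2 intron), -1.24 to 0.0122 (Grb2 upstream), -0.61 to 0.41 (Sos2 at Mettl21d), -0.28 to 0.67 (Sos2 promoter) and -0.45 to 0.63 (Sos1).
Depth limits the weak promoters: with 2 to 10 input reads per TSS window in MEL cells, a ratio is known only within a wide interval.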
